A study of Mus musculus with 8 samples.

Results

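miR-423 was measured as every distinct sequence that the deposited small RNA table assigned to mmu-miR-423-5p or to the 3p arm of the same hairpin. There were 9 such sequences among 11568 listed, 8 from the 5p arm and 1 from the 3p arm. The hairpin was chosen because its 23-nt 5p sequence had the largest rise of all listed sequences in oxidized methyltransferase RNA over oxidized control RNA, so that rise is described here and not tested. The RNA came from MIN6B1 cells, an established mouse insulinoma line that secretes insulin and serves as a model of the pancreatic beta cell. Cells received, by lipid transfection, either a plasmid labelled control or one that expresses the methyltransferase HENMT1ΔC-T6B, and were kept for 24 to 72 hours afterwards. For either plasmid, RNA was sequenced without oxidation or after oxidation by sodium periodate (NaIO4), which gave 4 groups of 2 libraries. The labels do not say whether oxidized and non-oxidized libraries came from the same RNA. All groups share the cell line, the transfection reagent (Lipofectamine) and a library input of 5 ng of RNA. The labels do not say that the 2 libraries of a group came from separate cultures, so the p-values below measure only the spread between these libraries, which may be technical.

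A miRNA is cut from a hairpin as a duplex, and usually 1 arm is kept by an Argonaute protein, where bases 2 to 8 (the seed) direct the choice of target mRNAs. The 3′ end of an animal miRNA normally carries free hydroxyl groups that periodate oxidizes, after which an adapter can no longer be joined. HENMT1 adds a methyl group to the 3′ end of small RNAs, which protects it from periodate, and T6B is a peptide of the TNRC6B protein that binds Argonaute. Fusing them directs the methyl group to small RNAs held by Argonaute, so the comparison addresses which small RNAs remain readable after oxidation. miR-423 is a broadly expressed miRNA whose 2 arms are both found in mammalian cells.

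The hairpin is shown whole because both arms and the bases beyond each arm enter the results. In the RefSeq table (GRCm38.p6) it lies at chr11:77078064-77078172 on the minus strand. It falls within Nsrp1, a protein-coding gene on the same strand for a splicing regulator of nuclear speckles, and overlaps no Nsrp1 exon in GENCODE M21, so it is intronic. Capitals mark the mature arms in the hairpin, and the seed in each mature arm.
miR-423 hairpin: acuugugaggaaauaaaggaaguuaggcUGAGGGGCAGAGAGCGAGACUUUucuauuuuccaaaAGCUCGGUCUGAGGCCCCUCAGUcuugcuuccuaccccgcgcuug
miR-423-5p: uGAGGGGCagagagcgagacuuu
miR-423-3p: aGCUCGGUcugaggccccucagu
The 5p arm lies at chr11:77078122-77078144 and the 3p arm at chr11:77078086-77078108. The seed of miR-423-5p was shared by 1 other of 1679 mature names in the RefSeq table, miR-6921-5p, which had 0 listed sequences. No other name shared the seed of miR-423-3p.

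Most listed 5p sequences began at the same base and ended at different bases, and the results turn on that 3′ end. They are shown as DNA, as deposited, with the bases after position 19 in capitals.
19 nt: tgaggggcagagagcgaga
20 nt: tgaggggcagagagcgagaC
21 nt: tgaggggcagagagcgagaCT
22 nt: tgaggggcagagagcgagaCTT
23 nt: tgaggggcagagagcgagaCTTT
24 nt: tgaggggcagagagcgagaCTTTT
The 23-nt sequence is the mature sequence of the reference. The 24-nt sequence continues 1 base further into the hairpin and had a hit on the precursor alone, so it is not one of the 9 members and is given beside them. The other 5p members were a 16-nt sequence with the same start, which matched the genome at 2 places, and 2 sequences that differ from the 23-nt sequence at the first base, T1C and T1G. Substitutions here name the base of the 23-nt sequence, its position from the 5′ end, and the base read. T1C and T1G had no genomic match in the deposited table, while the other 7 members had 1 or more.

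No listed sequence had fewer than 2 counts in either oxidized methyltransferase library or fewer than 10 in both together, so the listing was selected on those libraries. Totals of listed sequences were 5387014 and 6641250 in non-oxidized control RNA, 438363 and 295094 in oxidized control RNA, 3654639 and 4887022 in non-oxidized methyltransferase RNA, and 3100971 and 2446036 in oxidized methyltransferase RNA. These are not full library depths. In the smallest library a sequence without a count may still hold 0.00102% of the total (a floor of 3 counts), and floors and intervals cover counting error only. The beta cell markers miR-375-3p, miR-7a-5p and miR-184-3p were all listed and held 10.6% to 16.4% of listed counts without oxidation. Of 13 markers of other cell types, miR-122-5p (liver), miR-124-3p (neuron) and miR-126a-3p (endothelium) were listed, at 0.0109% to 0.0326% in all, and the other 10, of acinar pancreas, muscle and blood, were not. In this bulk RNA, fewer transfected cells and less RNA per cell cannot be told apart.

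The 23-nt miR-423-5p sequence was abundant in 3 groups and had no count in the other. Its counts were 3675 and 4159 in control RNA without oxidation, 0 and 0 in oxidized control RNA, 2828 and 3869 in non-oxidized methyltransferase RNA, and 3385 and 2060 in oxidized methyltransferase RNA. As CPM of listed counts these were 654 ± 39.6, 0, 783 ± 12.6 and 967 ± 176 (mean ± SD, n = 2). The oxidized control libraries thus stood apart from all 6 others. Between the methyltransferase groups, the oxidized libraries were the higher on this scale, without overlap. With library scaling by TMM, the trimmed mean of M-values, the sequence was at least 928-fold higher in oxidized methyltransferase than in oxidized control RNA, taking the control at a floor of 3 counts per library. The bound was 1126 with DESeq2 size factors, 492 with upper-quartile scaling and 114 with total counts. With TMM factors the oxidized methyltransferase libraries were the lower, at 1257 and 954 CPM against 1480 and 1811 without oxidation. The direction between these 2 groups thus rests on the scaling, and it uses the oxidized libraries that chose the sequence.

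By fitted rise in oxidized RNA the 23-nt sequence was first of 9851 sequences tested, which is the value that chose it. The 5 sequences that followed were each at 0 in both oxidized control libraries and had bounds of 826 (a 23-nt sequence of the miR-375 precursor), 691 (a 23-nt sequence of the let-7f-2 precursor), 686 (22 nt, no hit), 649 (a 23-nt sequence of the mir-320 precursor) and 583 (24 nt, no hit). The other miR-423 members that could be fitted ranked far lower, from 932 for the 22-nt sequence to 4196 for the 21-nt sequence. Among the members, the high rank therefore rests on the 23-nt sequence alone. The 24-nt sequence, outside the members, had a fitted log2 rise of 11.2, beside 14.3 for the 23-nt and 8.32 for the 22-nt sequence.

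**Figure D1:**
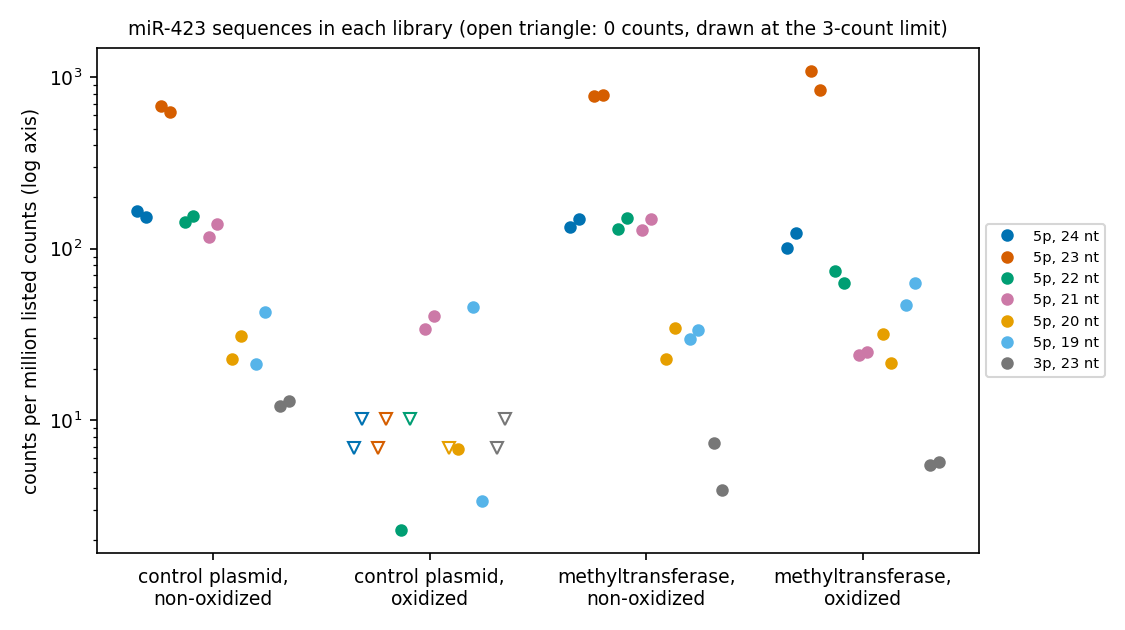
CPM of listed counts (vertical log axis) of the miR-423 sequences in each library, by group (horizontal axis). Colours are sequences, points are libraries and an open triangle marks 0 counts at the 3-count limit. The 23-nt sequence has no count in either oxidized control library, and the 21-nt sequence is counted in both.

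The remaining members differed in how much was left in oxidized control RNA. The 22-nt sequence had 776 and 1026 counts in control RNA without oxidation, 1 and 0 in oxidized control RNA, 475 and 743 in non-oxidized methyltransferase RNA, and 229 and 155 in oxidized methyltransferase RNA. The 21-nt sequence had, in the same order of groups, 633 and 920, 15 and 12, 472 and 733, and 74 and 61 counts. It was thus the member with the steadiest count in oxidized control RNA, where the full-length sequence had none. The 20-nt sequence had 122 and 207, 0 and 2, 83 and 168, and 99 and 53 counts. The 19-nt sequence had 115 and 282, 20 and 1, 109 and 164, and 146 and 154 counts, and its 20 counts in the first oxidized control library against 1 in the second set it apart as the most uneven. The 16-nt sequence had between 1 and 8 counts in every library. Along the series, counts in oxidized control RNA were highest at 19 and 21 nt and lowest at 22 to 24 nt.

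In oxidized RNA the methyltransferase libraries were higher than the control libraries for the 19- to 22-nt sequences under TMM scaling, by sizes that ranged widely. These values come from the contrast used to choose the hairpin and carry no test. The ratio was 412 for the 22-nt sequence (95% interval from the counts, 73.6 to 16333), 81.6 for the 20-nt sequence (22.2 to 680), 15.3 for the 19-nt sequence (9.86 to 25.2) and 5.37 for the 21-nt sequence (3.53 to 8.45). For the 16-nt sequence it was 3.58, with an interval (0.922 to 20.2) that includes no difference. The 24-nt sequence, with 888 and 1016, 0 and 0, 486 and 731, and 315 and 302 counts, was at least 108-fold higher. The directions at 16 and 21 nt depend on the library scaling, and with total counts the ratios were 0.442 and 0.662. The fitted log2 difference of the 21-nt sequence was 2.40 ± 0.44 (SE) with TMM factors, 1.50 ± 0.44 with upper-quartile scaling and -0.61 ± 0.42 with total counts. Over all 9851 sequences tested, 46.2% were called in this contrast, 42.3% higher and 3.92% lower.

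Without oxidation the plasmids could be compared in libraries that the choice of the hairpin did not use. No miR-423 sequence was called at a Benjamini-Hochberg adjusted p under 0.05 (edgeR quasi-likelihood test). Of the 9 members, 7 passed the filter on low counts, while the 16-nt sequence and T1G did not. The count was 0 of 7, and 0 of 9851 sequences (0%) were called in all, with 1 member and 858 sequences at an unadjusted p under 0.05. An alternative, the DESeq2 Wald test, called 38 sequences higher and 85 lower of 3718, and 0 members. The 23-nt sequence differed by -0.26 ± 0.36 on the log2 scale (SE; adjusted p = 0.890, edgeR), and the 19- to 22-nt sequences by -0.40 to -0.60. The median over all sequences was 0.05 and over the 607 mature miRNA sequences tested -0.63. With total counts in place of TMM factors the 23-nt difference was 0.26, so its sign rests on the scaling.

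The member at an unadjusted p under 0.05 was the 3p arm, which is the minor arm in these cells. miR-423-3p had 65 and 86 counts in control RNA without oxidation, 0 and 0 in oxidized control RNA, 27 and 19 in non-oxidized methyltransferase RNA, and 17 and 14 in oxidized methyltransferase RNA. The methyltransferase libraries were below the control libraries without oxidation and did not overlap them. The log2 difference was -1.72 ± 0.52 (SE; edgeR, unadjusted p = 0.00774, adjusted p = 0.375), so it did not pass the test over all sequences. Its sign was negative under all 17 alternatives, from -2.10 to -1.01.

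The share of 5p counts in the sum of both arms describes the same balance within each library. It was 98.8% ± 0.0579 in non-oxidized control RNA, 99.5% ± 0.240 in non-oxidized methyltransferase RNA and 99.5% ± 0.0906 in oxidized methyltransferase RNA (SD, n = 2). In oxidized control RNA all counts were from the 5p arm, 37 of 37 and 17 of 17. The 2 plasmids did not overlap without oxidation, but an exact two-sided permutation test of 2 libraries against 2 cannot go below p = 0.333, and that was its value (adjusted p = 0.481 over 13 such tests, of which the 6 that involve oxidized libraries are not used). In oxidized RNA, miR-423-3p was at least 5.37-fold higher with the methyltransferase under TMM scaling, but with total counts the same ratio against the floor was 0.660, so no bound above 1 holds there.

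All miR-423 members together held a like share of listed counts in 3 of the 4 groups. The share was 0.101% ± 0.000342 in non-oxidized control RNA, 0.114% ± 0.00499 in non-oxidized methyltransferase RNA and 0.115% ± 0.0178 in oxidized methyltransferase RNA (SD, n = 2). In oxidized control RNA it was 0.00710% ± 0.00189. Within mature miRNA counts alone the shares were 0.153%, 0.183%, 0.174% and, in oxidized control RNA, 0.218%, so the low value there is not seen with that denominator. In those libraries most of the miR-423 counts were of the 19- and 21-nt sequences.

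After oxidation of methyltransferase RNA the 21-nt and 22-nt forms of miR-423-5p were lower than before it. Of the 6 members tested (the 23-nt sequence was left out because these libraries chose it), 2 fell and 0 rose. The 6 share the hairpin and these libraries with the 23-nt sequence, so their calls are not separate from that choice. Over all sequences tested, 12.9% were called, 11.2% lower and 1.77% higher. Of the 607 mature miRNA sequences tested, 251 were lower and 0 higher, so 2 of 6 does not set miR-423 apart from other miRNAs. The 21-nt sequence fell by 3.40 on the log2 scale (SE 0.42; edgeR, adjusted p = 2.30e-04) and was lower in both oxidized libraries than in either non-oxidized one. The 22-nt sequence fell by 1.93 (SE 0.42; edgeR, adjusted p = 0.00993). Its call was lost with total counts (-1.04, adjusted p = 0.105), upper-quartile scaling (-1.14, adjusted p = 0.0804), without the second non-oxidized methyltransferase library (-1.69, adjusted p = 0.0779) without the second oxidized one (-1.64, adjusted p = 0.0920) and, with the smallest difference, when miRNA sequences alone were fitted (-0.54, adjusted p = 0.231), all by edgeR. The call of the 21-nt sequence held under all 18 alternatives, with values from -3.66 to -2.01.

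The other lengths did not pass this test. The log2 difference was -0.99 ± 0.58 for the 20-nt sequence (adjusted p = 0.314, edgeR), -0.09 ± 0.67 for the 19-nt sequence (adjusted p = 0.950), -0.84 ± 0.54 for miR-423-3p (adjusted p = 0.368) and -1.08 ± 0.62 for T1C (adjusted p = 0.312). The 24-nt sequence, outside the members, was at -1.22 ± 0.38 (adjusted p = 0.0667, edgeR). It passed when either oxidized control library was left out (adjusted p = 0.0408 and 0.0411), although neither of those libraries is in this contrast. The 23-nt sequence, given as a value alone, was at -0.57 ± 0.36 with TMM factors, and at 0.31 with total counts and 0.21 with upper-quartile scaling. The median over mature miRNA sequences was -1.39 and over all sequences 0.09. In the authors' deposited table the signed fold change of non-oxidized over oxidized methyltransferase RNA was 1.41 for the 23-nt sequence, 3.62 for the 22-nt sequence (adjusted p = 0.00273) and 10.2 for the 21-nt sequence (adjusted p = 9.96e-10).

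**Figure D2:**
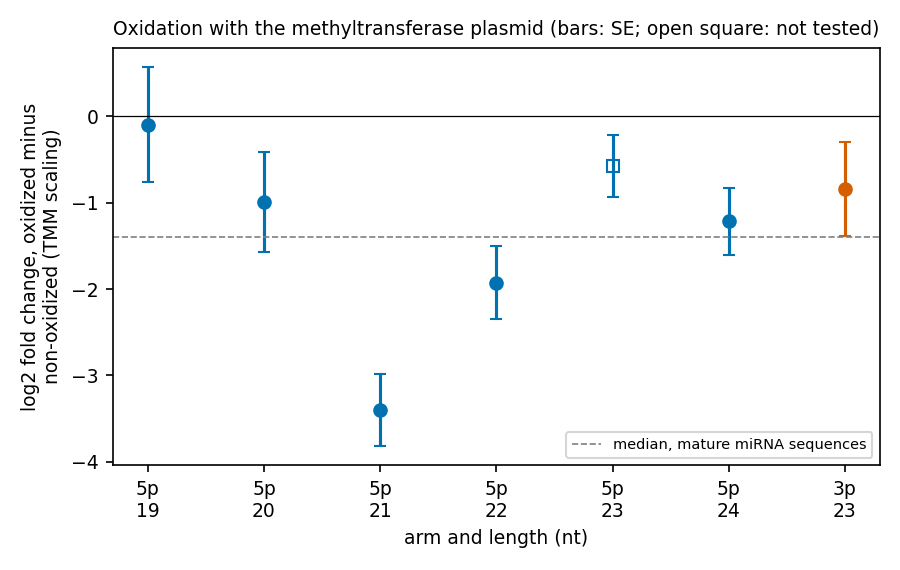
Log2 fold change of oxidized over non-oxidized methyltransferase RNA (vertical axis, error bars 1 SE) for each miR-423 arm and length (horizontal axis, nt; the open square was not tested), with the median of mature miRNA sequences as a broken line. The 21-nt sequence lies lowest at -3.40 and the 19-nt sequence nearest 0 at -0.09.

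Ratios between lengths within a library are free of library scaling. Among sequences of 16 to 24 nt with the shared 5′ end, the 23-nt sequence made up 56.9% ± 3.20 in non-oxidized control RNA, 61.9% ± 2.17 in non-oxidized methyltransferase RNA and 76.7% ± 4.13 in oxidized methyltransferase RNA (SD, n = 2). These shares rest on 2792 to 7612 counts per library. The 21-nt sequence made up 11.1% ± 1.34, 11.0% ± 0.601 and 1.96% ± 0.314. In oxidized control RNA only 37 and 17 counts remained, of which the 21-nt sequence took 40.5% and 70.6%, the 19-nt sequence 54.1% and 5.88%, and the 23-nt sequence none. The most abundant length in 3 groups thus had no count in the fourth, and neither did the 24-nt sequence.

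For every 100 counts of the 23-nt sequence there were 17.8 ± 1.59 counts of the 21-nt sequence in non-oxidized methyltransferase RNA and 2.57 ± 0.548 after oxidation. The 22-nt sequence had 18.0 ± 1.70 before and 7.14 ± 0.537 after oxidation, and the 24-nt sequence 18.0 ± 1.21 and 12.0 ± 3.79. The 20-nt sequence had a mean of 3.64 before and 2.75 after oxidation, and the 19-nt sequence 4.05 ± 0.272 and 5.89 ± 2.24. The ratios after oxidation were thus smallest, relative to those before it, at 21 nt, and the 19- and 20-nt sequences did not extend that order. The oxidized and non-oxidized libraries did not overlap at any of these 5 lengths, with the oxidized ones higher at 19 nt and lower at the others. At 20 nt they nearly touched, with 2.93 in the lower non-oxidized and 2.92 in the higher oxidized library. So they did at 19 nt, with 4.24 in the higher non-oxidized and 4.31 in the lower oxidized library. The other oxidized library had 7.48, so the rise at 19 nt rests mainly on that library. How often the forms of other sequences separate in this way was not taken. Because the 23-nt sequence that forms the denominator was chosen for its level in the oxidized methyltransferase libraries, these ratios are a description and carry no test.

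**Figure D3:**
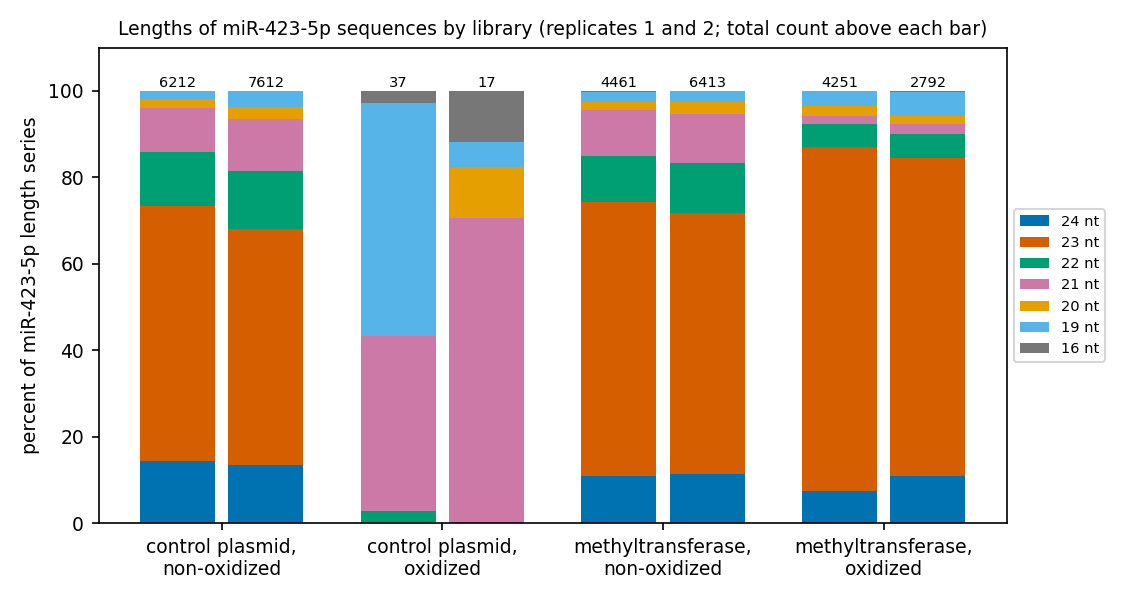
Stacked bars of the share of each length (percent, vertical axis) among the 16- to 24-nt miR-423-5p sequences with the shared 5′ end, 1 bar per library, by group, with the total count above it. The 23-nt share is 76.7% in oxidized methyltransferase RNA and 0 in oxidized control RNA, where 37 and 17 counts remain in all.

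With the control plasmid and TMM factors, every member that could be tested was lower after oxidation. All 6 tested members were called lower, where 64.8% of all sequences were called, 46.4% lower and 18.4% higher, and 563 of 607 mature miRNA sequences were lower. The 23-nt sequence was left out because the oxidized control libraries chose it. T1C, among the 6, is 1 base from it, and the 19- to 22-nt sequences are shorter forms of it. All 6 come from the chosen hairpin and use the libraries that chose it, so their calls are not separate from that choice. The 21-nt sequence fell by 6.20 on the log2 scale (SE 0.49; edgeR, adjusted p = 1.00e-06) and the 19-nt sequence by 4.72 (SE 0.81; edgeR, adjusted p = 3.46e-04), against a median of -8.69 over mature miRNA sequences. In counts scaled by TMM, non-oxidized control RNA was 75.3-fold above oxidized control RNA for the 21-nt sequence (95% interval 51.6 to 115) and 24.8-fold for the 19-nt sequence (16.0 to 40.4). The ratio was 2360 for the 22-nt sequence (423 to 93267). The 23-nt sequence was at least 1651-fold and miR-423-3p at least 31.8-fold higher without oxidation. These sizes depend on the scaling: with total counts the 23-nt bound was 76.8 and the miR-423-3p bound 1.47, and the ratios were 110 at 22 nt, 3.50 at 21 nt and 1.15 at 19 nt. This contrast and the plasmid contrast in oxidized RNA share the oxidized control libraries. When miRNA sequences alone were fitted, which centres the scale on miRNAs, the 19-nt value became 1.66 and the 21-nt value 0.056, and with total counts the 19-nt value was -0.29, no longer called, so these directions are relative to the other small RNAs listed.

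Among 52 miRNAs whose main sequence averaged at least 1000 counts without oxidation, 10 had a higher oxidized over non-oxidized log2 ratio than miR-423-5p with the methyltransferase. The median was -1.89 and the middle 50% ran from -3.65 to -0.88, beside -0.57 for miR-423-5p. Of 20 beta cell miRNAs looked for, 18 were listed and tested by their main sequence, of which 12 were lower and 0 higher, with a median of -2.57. Of the 607 mature miRNA sequences tested, 251 were lower and 0 higher. miR-375-3p, the most characteristic islet miRNA, was at -1.39 ± 0.45, miR-182-5p was lowest at -5.88 ± 0.44, and miR-200c-3p was highest at -0.10 ± 0.69. Without oxidation 0 of these 18 were called, with a median of -0.94, where 0 of all 9851 sequences were called. After oxidation of control RNA all 18 were lower, with a median of -12.05. There, 563 of 607 mature miRNA sequences and 46.4% of all sequences were lower, so 18 of 18 does not set the beta cell miRNAs apart. The choice of the 23-nt sequence by its oxidized methyltransferase level favours a high place on this measure, so its place is a description only.

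The miRNAs with the nearest profile over the 8 libraries were miR-324-5p, miR-320-3p and let-7g-5p. Likeness was the root mean square difference of log2 CPM, each centred on its mean. It was 0.557 for miR-324-5p (Pearson r = 0.999), 0.669 for miR-320-3p (r = 0.994) and 0.687 for let-7g-5p (r = 0.994), where the points include 2 oxidized control libraries far below the rest. miR-324-5p had 1812 and 2126 counts in control RNA without oxidation, 0 and 0 in oxidized control RNA, 1177 and 1384 in non-oxidized methyltransferase RNA, and 1523 and 752 in oxidized methyltransferase RNA. Its pattern of zeros was that of the 23-nt miR-423-5p sequence, at lower counts.

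Shorter forms of other abundant miRNAs covered a wide range around those of miR-423-5p. For forms 2 nt shorter than the main sequence, the log2 change of their ratio to it was below 0 in 27 of 37 other miRNAs, with a median of -0.97 and a range of -4.82 to 3.56. miR-423-5p was at -2.79, and 10 of the 37 were lower. For forms 1 nt shorter, 27 of 45 were below 0 (median -0.39) and miR-423-5p was at -1.33, with 12 lower. For forms 1 nt longer, 17 of 34 were below 0 (median -0.04) and miR-423-5p was at -0.59, with 14 lower. The miR-423-5p ratios have as denominator the 23-nt sequence, which was chosen for its high oxidized methyltransferase level, and that choice favours low values here.

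**Figure D4:**
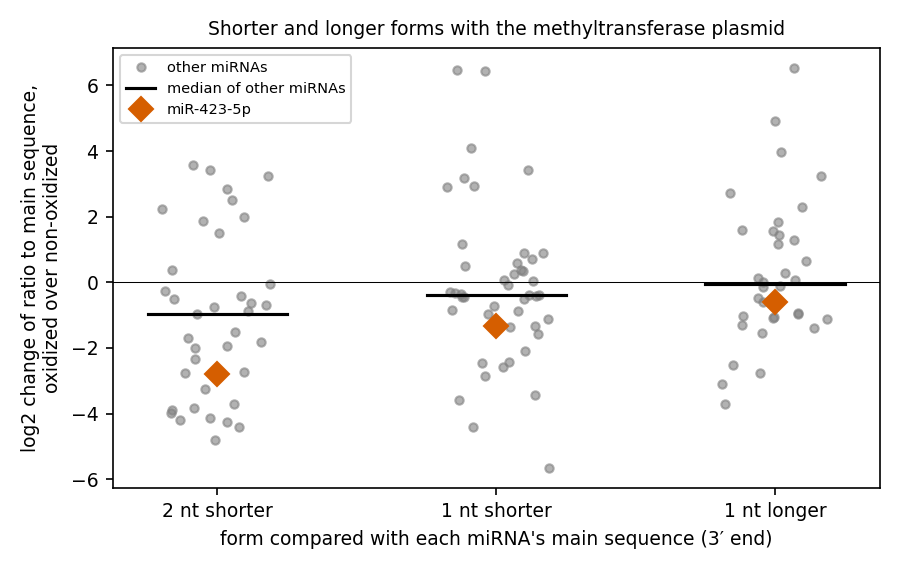
Log2 change of the ratio of a shorter or longer form to the main sequence, oxidized over non-oxidized methyltransferase RNA (vertical axis), for other miRNAs (grey points, black line at their median) and miR-423-5p (orange). The miR-423-5p values are -2.79, -1.33 and -0.59 for 2 nt shorter, 1 nt shorter and 1 nt longer.

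Beyond the 9 members, 38 listed sequences derived from miR-423. Of these, 2 matched the precursor alone and 2 were members with added 3′ bases. A further 27 were 1 substitution from a member or from the 24-nt sequence, and 7 could be read as either kind. Among the 27, the sequence G12N has an unread base (N) at position 12. At 0 in both oxidized control libraries were 37 of these 38 and 4 of the 9 members, where 4273 of all listed sequences (36.9%) were at 0 in both. The exception was the 25-nt sequence with an added T, with 4 and 0 counts there against 95 and 92 in non-oxidized control RNA. The second precursor sequence, 22 nt starting 2 nt later, had 6 to 14 counts in each of the 6 other libraries. Most of the 38 were rare without oxidation, so their zeros, taken singly, say little about loss.

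Sequences 1 substitution from the 23-nt sequence numbered 29, T1C and T1G included, and covered 20 of its positions. The most abundant were T23A and T21C, followed by T21A and A17G with equal summed counts. The first 3 are shown with T21G and the members T1C and T1G, the changed base in capitals.
T21C: tgaggggcagagagcgagacCtt
T21A: tgaggggcagagagcgagacAtt
T21G: tgaggggcagagagcgagacGtt
T23A: tgaggggcagagagcgagacttA
T1C: Cgaggggcagagagcgagacttt
T1G: Ggaggggcagagagcgagacttt
T23A can also be read as the 22-nt sequence with an added A, and the changes at position 21 as the 20-nt sequence with 3 added bases. T21C had 22 and 18 counts in control RNA without oxidation, 0 and 0 in oxidized control RNA, 32 and 37 in non-oxidized methyltransferase RNA, and 70 and 28 in oxidized methyltransferase RNA. T1C had 18 and 15, 0 and 0, 17 and 20, and 13 and 8 counts in the same order. All 29 were at 0 in both oxidized control libraries, as was the 23-nt sequence, but the 29 were far rarer. In non-oxidized control RNA T23A averaged 11.6 CPM of listed counts and the next highest, A19G, 3.85. The 23-nt sequence averaged 654 there. A single count was 2.28 and 3.39 CPM in the oxidized control libraries. The zeros of the sequences other than T23A, taken singly, therefore say little about loss.

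Per 1000 counts of the 23-nt sequence, these 29 sequences summed to 94.0 ± 0.992 in non-oxidized control RNA, 126 ± 17.0 in non-oxidized methyltransferase RNA and 203 ± 21.2 in oxidized methyltransferase RNA (SD, n = 2). The oxidized libraries did not overlap the others, and 17 of the 29 sequences were higher on this scale in both oxidized than in both non-oxidized methyltransferase libraries. The like share over other listed sequences was not taken, so the 17 are a description only. Some rest on few counts, such as T1G with 2 and 1 before and 5 and 5 after oxidation. In methyltransferase RNA the 23 changes at positions 1 to 20 summed to 82.8 ± 7.43 before and 141 ± 0.725 after oxidation, and the 3 at positions 22 and 23 to 18.0 ± 0.574 and 22.7 ± 4.65. The set is selected on the oxidized methyltransferase libraries, because a sequence had to be counted there to be listed. The part of that selection in the higher ratio was not tested.

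**Figure D5:**
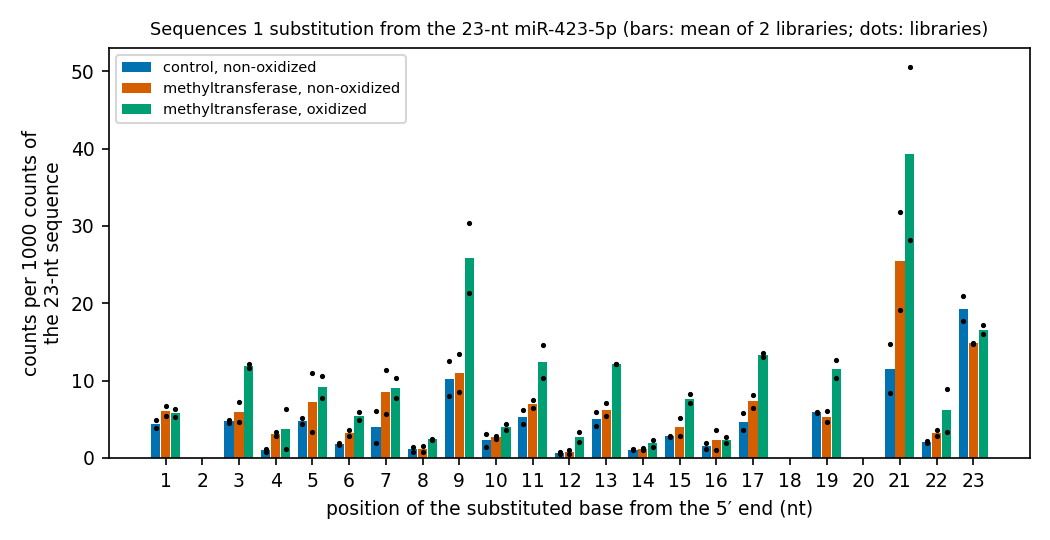
Counts of sequences 1 substitution from the 23-nt miR-423-5p sequence, per 1000 counts of that sequence (vertical axis), by position from its 5′ end, for the 3 groups in which it was counted. Bars are means of 2 libraries and dots the libraries. The sum over all 29 is 94.0, 126 and 203 in non-oxidized control, non-oxidized methyltransferase and oxidized methyltransferase RNA.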

How the data were processed

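Small RNA was sequenced from 8 libraries (4 groups of 2), prepared with Qiagen's QIAseq kit for miRNA according to the labels. The authors deposited 1 table with, per the file headers, a read count for each distinct sequence and library, a normalized signal (counts over a size factor for each library), a regularized log2 value, a signed fold change (read as a score) with its p-value for their own comparisons, and annotation hits. The aligner, genome build and use of molecular identifiers are not given in the sources used here.

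The 12608 lines were merged by sequence into 11568. A single edgeR 4.0.16 model (R 4.3.3) of the 4 groups was fitted to the counts of all 8 libraries, after filterByExpr and with TMM factors, and without a replicate block. Contrasts used its quasi-likelihood test, and sequences were called at an adjusted p under 0.05 (Benjamini-Hochberg, 9851 sequences). Standard errors were derived from the fold change and its F statistic. A fold against a group at 0 was bounded with 3 counts per library, and ratios have exact 95% binomial intervals. Shares within libraries were compared between plasmids, without oxidation, by two-sided exact permutation. DESeq2 1.42.0 and limma 3.58.1 served as alternatives. The fit was tested on simulated data.

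Named sequences were every member, the most abundant related sequence of each kind, the 3 nearest profiles and the 5 sequences next in rank. T21A, T21G, T23A, A17G and the beta cell miRNAs named were picked after their values were seen. The members and lists were chosen with earlier results of these data known. The deposited log2 values were not used.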

Additional observations from a re-analysis of the deposited data

How the results depend on the processing

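Listing depended on the oxidized methyltransferase libraries, each group had 2 libraries, and the 37 and 17 counts of the 5p length series in oxidized control RNA limit every ratio there. Fitting miRNA sequences alone, total counts and upper-quartile scaling moved the centre of the scale: total counts shifted the median of all sequences by 0.52 for the plasmids without oxidation, 0.87 for oxidation with the methyltransferase and 4.34 with the control plasmid. Without oxidation, 0 members were called under all 19 alternatives, and 0 without and with the replicate block.

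After oxidation of methyltransferase RNA, the count of 2 called members became 1 with total counts, 1 with upper-quartile scaling, 1 of 1 tested with at least 10 counts in every library, 1 of 7 among miRNA sequences alone, and 0 with counts summed by annotation, where the 3p arm alone was tested. Leaving out 1 library gave 1 to 2, with 1 without the second non-oxidized or the second oxidized methyltransferase library. With the control plasmid, the count of 6 became 4 with total counts, 5 of 5 tested with only the compared libraries, 1 of 1 tested with at least 10 counts in every library, 3 among miRNA sequences alone (1 of them higher) and 1 with summed counts. Calls over all sequences moved too. For methyltransferase RNA, 174 were higher and 1100 lower of 9851 with TMM factors, and 1008 and 630 with total counts. For control RNA these were 1809 and 4571, and 5202 and 2331. Among 866 miRNA sequences fitted alone, 156 were higher and 194 lower for methyltransferase RNA, and 92 and 413 for control RNA.

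Without oxidation, signs turned with total counts for the 23-nt (0.26), 20-nt (0.087) and 21-nt (0.13) sequences. With miRNA sequences alone they turned for 23 nt (0.44), 22 nt (0.11), 21 nt (0.31), 20 nt (0.29), 19 nt (0.17) and 24 nt (0.022). Leaving out the first or second non-oxidized control library gave -1.08 and 0.18 for 19 nt, and 0.28 and -0.022 for T1C, and T1C was at -0.084 with DESeq2 size factors. With oxidation of methyltransferase RNA, the 19-nt value was 0.80 with total counts, 0.68 with upper-quartile scaling, 0.14 with only the compared libraries, 1.30 with miRNA sequences alone, and between -0.33 (without the first non-oxidized methyltransferase library) and 0.11 (without the second) on leaving out 1 library, with 0.071 without the first oxidized one. miR-423-3p was at 0.0035 with total counts. With miRNA sequences alone the values were 0.40 (20 nt), 0.55 (3p), 0.30 (T1C), 0.18 (24 nt) and 0.82 (23 nt). With the control plasmid the same fit gave 1.66 (19 nt) and 0.056 (21 nt). The cause was not tested.

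The share of listed counts was 0.153%, 0.218%, 0.183% and 0.174% over mature miRNA counts (control without and with oxidation, then methyltransferase). With related sequences it was 0.125%, 0.140% and 0.150% in the groups other than oxidized control. With at least 10 counts in each non-oxidized control library and each methyltransferase library it was 0.105%, 0.00913% and 0.120% in the first 3 groups. The 5p share was 98.1% (non-oxidized control) and 99.4% (oxidized methyltransferase) for the most abundant sequence of each arm, and 99.0% and 99.6% with related sequences.

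The labels do not say that replicate numbers pair the libraries. Over 2481 sequences, same-numbered control and methyltransferase libraries deviated together without oxidation (r = 0.553). In the other contrasts r was 0.0296, 0.0386 and -0.00756. The main model had no replicate block, and with the block 0 of 9851 sequences were called between the plasmids without oxidation, as without it. With the replicate block 2 and 6 members were called for oxidation with the methyltransferase and control plasmids, as without it.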

Other observations

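Among the substitutions of the 23-nt miR-423-5p sequence, the 6 A-to-G changes summed to 28.8 ± 0.369 per 1000 counts of that sequence in non-oxidized control RNA, 34.9 ± 0.0808 in non-oxidized methyltransferase RNA and 70.0 ± 1.23 in oxidized methyltransferase RNA (SD, n = 2). The 8 G-to-A changes had 16.6 ± 3.43, 28.7 ± 3.36 and 36.2 ± 0.259 on the same scale. The 3 changes at position 21 had 11.6 ± 4.44, 25.5 ± 8.98 and 39.3 ± 15.8. A 24-nt sequence that adds an A to the 23-nt sequence had 17 and 27 counts in control RNA without oxidation, 0 and 0 in oxidized control RNA, 12 and 17 in non-oxidized methyltransferase RNA, and 26 and 33 in oxidized methyltransferase RNA. These kinds of change were picked after their values were seen, and whether listing on oxidized methyltransferase counts sets these ratios was not tested.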
